A study of Homo sapiens and Mus musculus with 12 samples.

Results

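The genes described are 42 genes of DNA replication that are transcribed around the G1/S transition, chosen as a list of human symbols together with the mouse genes of the same symbol. All 42 were found in both sets of count files, among 63677 human and 47729 mouse gene identifiers, and all 42 passed the filter on low counts in both lines. They fall into 10 licensing genes, 6 genes of helicase activation, 14 polymerase and fork genes, 4 genes of nucleotide synthesis, 3 E2F factors and 5 genes of checkpoint, repair and chromatin. Gene expression was measured by RNA sequencing (RNA-seq) in MDA-MB-231, a human triple-negative breast cancer (TNBC) cell line, and in 4T1, a mouse mammary carcinoma cell line, both labelled as wild type. Cells were treated with 1 μM ponatinib, which inhibits several tyrosine kinases, or with DMSO, its solvent, for 24 h, with 3 libraries in each of the 4 groups. The study sequenced these cells to look for the pathways through which ponatinib acts on tumor cells. Each line was 1 cell line of 1 species, and the labels do not say whether libraries came from separate cultures, so p-values measure the spread between libraries, which may be technical.

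Before a cell copies its DNA, the origin recognition complex, CDC6 and CDT1 load the MCM2 to MCM7 helicase onto origins, a step called licensing. CDC45, the GINS complex and MCM10 then turn the loaded helicase into an active one, and DNA polymerases, the sliding clamp PCNA and its loader RFC copy the strands from deoxynucleotides that ribonucleotide reductase, thymidylate synthase and thymidine kinase supply. Transcription of most of these genes rises before S phase under E2F factors, which are held back by the retinoblastoma protein until cyclin-dependent kinases inactivate it.

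Short windows of promoter sequence were searched first, because E2F sites are what many of these genes are known to share. Windows ran from 250 bases before to 50 bases after the transcription start, and the letters searched on both strands were TTTGGCGC, TTTCGCGC, TTTCCCGC and TTTGCCGC, which can overlap one another. In the human windows, taken from RefSeq on GRCh38.p14, 21 of the 37 members with a window held at least 1 of these words, against 5.397% of 15843 genes. In the mouse windows, taken from GRCm39 at the starts in GENCODE vM39, 15 of 42 members held one, against 2.823% of 21751 genes. A gene was counted if any of its windows held a word. There were 22199 human and 21770 mouse windows, so human genes more often had several, and shares are not alike between species. In both species 11 members held one (*CDC6*, *CDT1*, *E2F1*, *E2F2*, *GINS1*, *MCM3*, *MCM6*, *POLA1*, *POLE*, *POLE2* and *RFC3*). No human window was at hand for *MCM4*, *MCM5*, *GINS4*, *RPA2* and *E2F8*. The letters TTTGAA, the CHR element found in genes of later cell cycle phases, were in the windows of 2 of 37 human members and 3 of 42 mouse members, against 15.849% and 17.084% of all genes. A match is a description of letters and not a measured binding site.

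The 30-base stretches around these words are shown for *CDC6*, which fell in both lines, and for *MCM6* and *E2F1*, whose response differed between the lines and which were chosen after their values were seen. Capitals mark the searched words, each line reads 5′ to 3′ on the strand of the gene, and adjoining words run together. The human stretches lie at chr17:40287875-40287904 on the plus strand (*CDC6*), chr2:135876575-135876604 and chr2:135876513-135876542 on the minus strand (*MCM6*) and chr20:33686394-33686423 on the minus strand (*E2F1*). The mouse stretches lie at chr11:98798647-98798676 on the plus strand (*Cdc6*), chr1:128287532-128287561 and chr1:128287471-128287500 on the minus strand (*Mcm6*) and chr2:154411784-154411813 on the minus strand (*E2f1*).
CDC6, human: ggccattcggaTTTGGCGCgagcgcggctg
Cdc6, mouse: gaaggctgaagtagagcggcTTTGGCGCga
MCM6, human, distal: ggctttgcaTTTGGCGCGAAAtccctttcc
MCM6, human, proximal: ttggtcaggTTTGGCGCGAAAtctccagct
Mcm6, mouse, distal: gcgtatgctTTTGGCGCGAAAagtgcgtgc
Mcm6, mouse, proximal: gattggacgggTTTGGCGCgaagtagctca
E2F1, human: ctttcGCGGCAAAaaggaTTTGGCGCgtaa
E2f1, mouse: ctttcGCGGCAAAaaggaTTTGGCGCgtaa
The *E2F1* stretch has the same letters in both species, and both *MCM6* promoters hold 2 stretches with such words. From the annotated start, the *E2F1* words begin at -33 and -20 in human and at 5 and 18 in mouse. The part of these words in the responses was not tested. Both *E2F1* and *MCM6* fell in MDA-MB-231 and were not called in 4T1, as the values in the libraries show.

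Further stretches are shown for the other genes with the largest falls summed over both lines that hold a word in the human window. They lie at chr1:35769965-35769994 (*CLSPN*, minus strand), chr16:58392455-58392484 (*GINS3*, plus strand), chr6:52284728-52284757 (*MCM3*, minus strand), chr20:5126663-5126692 (*PCNA*, minus strand) and chr20:25407667-25407696 (*GINS1*, plus strand) of the human genome, and at chr1:20890487-20890516 (*Mcm3*, minus strand) and chr2:150751496-150751525 (*Gins1*, plus strand) of the mouse genome.
CLSPN, human: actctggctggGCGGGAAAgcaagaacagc
GINS3, human: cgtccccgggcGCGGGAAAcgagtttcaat
MCM3, human: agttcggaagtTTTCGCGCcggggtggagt
PCNA, human: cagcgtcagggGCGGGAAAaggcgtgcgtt
GINS1, human: agctttgttcgGCGCCAAAgcgcggagcgg
Mcm3, mouse: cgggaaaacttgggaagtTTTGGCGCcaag
Gins1, mouse: ttgagcctaTTTGGCGCCAAAgcgaggagc
All 4 mouse members that rose lacked a word. In MDA-MB-231 the median log2 fold change was -1.03 over the 21 members with a word and -1.16 over the 16 with a window but no word, and in 4T1 it was -0.47 over 15 and -0.37 over 27. Of the 15 with a word in 4T1, 11 were lower and 0 higher, and of the 27 without one, 16 were lower and 4 higher, a difference that was not tested.

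The MDA-MB-231 libraries held 15012884 to 17301760 counts and the 4T1 libraries 17800675 to 18951493. The epithelial origin of the lines was checked against marker genes. In MDA-MB-231 the summed level of 6 epithelial markers was 2034 to 2480 CPM (read counts scaled to a library of fixed size by TMM) in DMSO and 2985 to 3787 CPM with ponatinib, while *CDH1*, the gene of E-cadherin, was at 0 in every DMSO library. In 4T1 the same markers summed to 7889 to 9087 CPM in DMSO and 8028 to 8841 CPM with ponatinib. Of these 6 in 4T1, 2 were lower and 1 was higher. The 3 hormone receptor markers (*ESR1*, *PGR* and *ERBB2*) summed to 92.9 to 107 CPM in DMSO and 167 to 178 CPM with ponatinib in MDA-MB-231. There 2 had a mean below 1 CPM, and the 1 tested was higher (log2 fold change 0.81). In 4T1 they summed to 85.1 to 104 CPM and 96.8 to 111 CPM, and 1 of 2 tested was higher. Leukocyte markers summed to at most 2.23 CPM in MDA-MB-231 and 2.44 CPM in 4T1. Fibroblast and endothelial markers summed to 26.5 to 31.8 CPM in DMSO and 81.4 to 87.8 CPM with ponatinib in MDA-MB-231, and to 3.94 to 5.22 CPM and 8.16 to 8.74 CPM in 4T1. In DMSO, 4 of these 5 genes had a mean below 1 CPM in each line, so the sums rest on few genes. Only 2 were tested in each line. In MDA-MB-231 2 were higher, and in 4T1 1 was lower (log2 fold change -6.76) and 1 higher (1.26). Mesenchymal markers summed to 1888 to 2049 CPM in DMSO and 1267 to 1434 CPM with ponatinib in MDA-MB-231, where *VIM* and *CD44* were lower and *FN1* higher, and to 6649 to 7586 CPM and 4582 to 5001 CPM in 4T1, where *Cd44* and *Fn1* were lower. The part of these marker changes in the results was not tested.

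In MDA-MB-231 every one of these genes was lower with ponatinib. Each of the 42 genes was lower and 0 were higher by the quasi-likelihood test of edgeR (Benjamini-Hochberg adjusted p under 0.05), where 26.8% of the 14610 genes tested were lower and 27.2% higher. The ponatinib libraries lay below the DMSO libraries without overlap for 42 of 42 members, against 29.8% of all genes tested. Their median log2 fold change was -1.09, with a range from -2.99 (*RRM2*) to -0.43 (*LIG1*), and the median of all genes tested was 0.02. Summed over the members, the level fell from 5371 to 5716 CPM in DMSO to 2636 to 2754 CPM with ponatinib. In these bulk samples, fewer cells in G1/S and less RNA per cell cannot be told apart. A fold of at least 1.5 at an unadjusted p-value under 0.05, the threshold that the methods set for differentially expressed genes, was passed downward by 37 members, against 14.5% of all genes tested. A log2 fold change below -1 with an adjusted p under 0.05 was reached by 26 members (5.16% of all genes tested).

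In 4T1 the fall was smaller and not shared by every gene. There 27 members fell and 4 rose at the same threshold, where 29.4% of the 13286 genes tested were lower and 29.5% higher, and 11 were not called. The 4 higher genes were *Rfc2*, *Pold1*, *Tk1* and *Chaf1b*, and the 11 without a call were *Mcm6*, *Gins2*, *Gins4*, *Pola2*, *Pole2*, *Rfc3*, *Rfc4*, *Rfc5*, *Lig1*, *E2f1* and *Ung*. The median log2 fold change was -0.43, with a range from -1.43 (*Cdc6*) to 0.42 (*Chaf1b*), beside a median of -0.00014 over all genes tested. Libraries did not overlap for 26 members that were lower and 6 that were higher, against 30.8% and 32.6% of all genes tested. At a fold of at least 1.5 and an unadjusted p-value under 0.05, 17 members were lower and 0 higher, against 13.1% and 18.4% of all genes. With an adjusted p under 0.05, 3 members (*Cdc6*, *Fen1* and *Rrm2*) lay below -1, against 4.84% of all genes tested. The summed level fell from 2890 to 2972 CPM to 2140 to 2269 CPM. With the replicate number as a block, 8 members were higher (*Gins2*, *Gins4*, *Pola2* and *E2f1* in addition) and 27 lower, against 32.4% of all genes in each direction. Scaling by total counts moved the median of all genes to 0.12 and gave 9 members higher and 23 lower, against 36.5% and 22.1% of all genes.

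**Figure D1:**
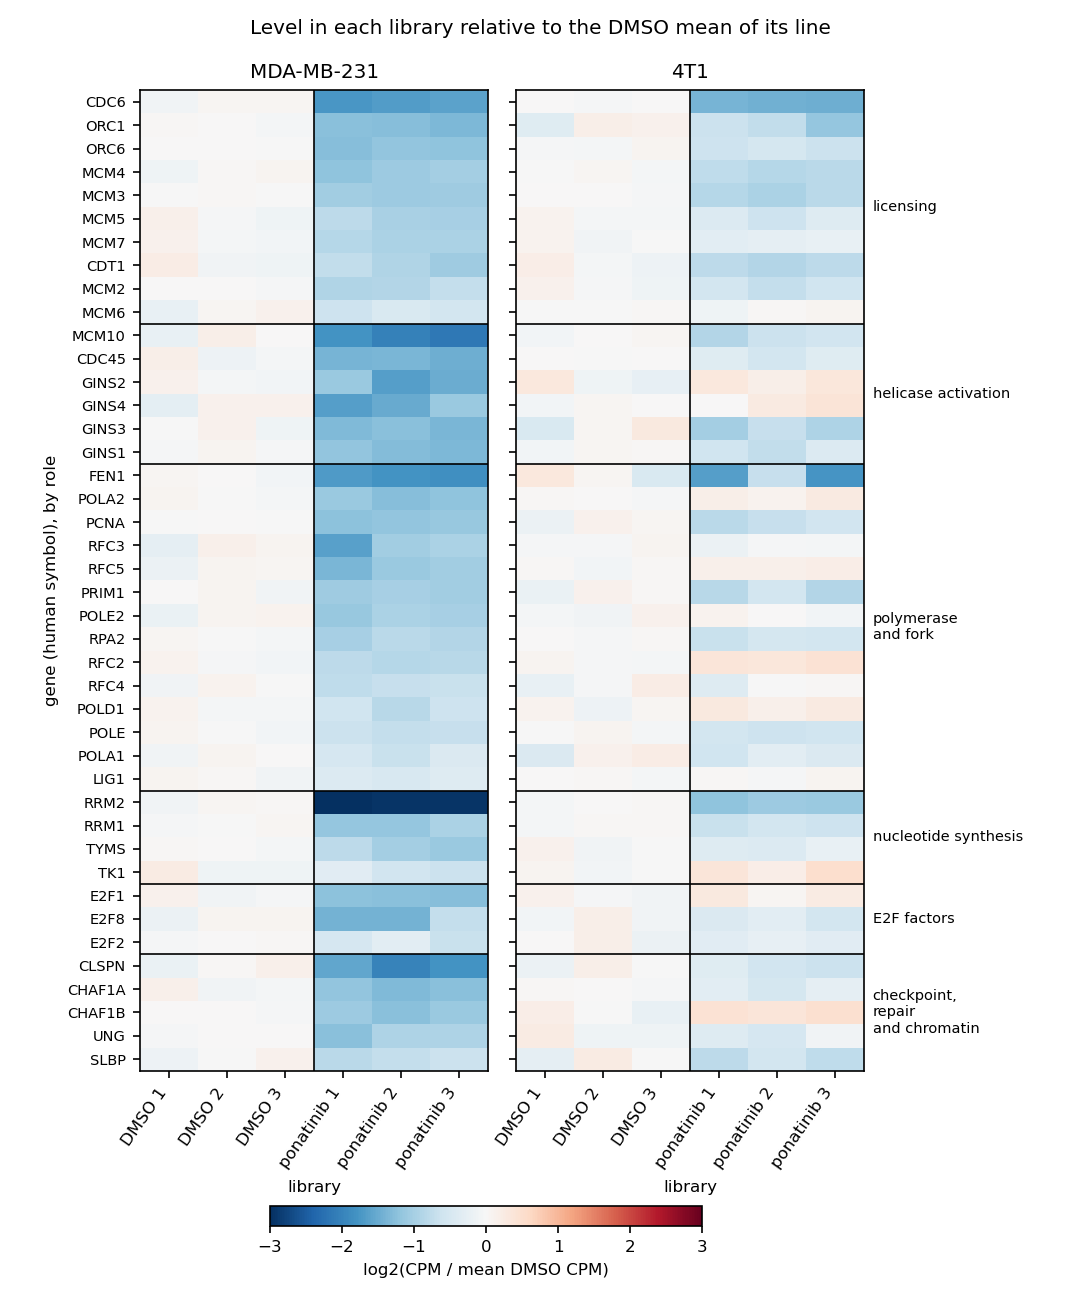
Levels of the 42 genes in each of the 12 libraries as log2 of CPM over the DMSO mean of the same line, from blue (lower) to red (higher), with genes grouped by role and ordered within a role by the fold change in MDA-MB-231. Every ponatinib column of MDA-MB-231 is blue from top to bottom, whereas the ponatinib columns of 4T1 are blue for most licensing genes and mixed for polymerase and fork genes.

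All but 1 of the licensing genes fell in both lines. Lower calls covered 10 of 10 in MDA-MB-231 (median -0.99 on the log2 scale) and 9 of 10 in 4T1 (median -0.71). *CDC6*, the loader that joins the origin recognition complex to the helicase (chr17:40287879-40304657 in hg38), had the largest fall of the role in both lines. Its level was 143, 158 and 159 CPM in the DMSO libraries and 45.4, 47.7 and 50.5 CPM in the ponatinib libraries of MDA-MB-231. In 4T1, *Cdc6* was at 42.5, 41.3 and 42.7 CPM in DMSO and at 16.1, 15.4 and 15.4 CPM with ponatinib. The groups did not overlap in either line, and the log2 fold changes were -1.68 ± 0.08 (SE, adjusted p = 3.5e-08) in MDA-MB-231 and -1.43 ± 0.09 (adjusted p = 1.14e-08) in 4T1. *CDT1*, the partner of *CDC6* in loading, fell by nearly the same amount in both, with log2 fold changes of -0.89 ± 0.11 and -0.82 ± 0.09.

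*ORC1*, the largest subunit of the origin recognition complex, was at 31.6, 31.2 and 29.3 CPM in DMSO and 12.9, 12.6 and 12.2 CPM with ponatinib in MDA-MB-231 (log2 fold change -1.29 ± 0.10, adjusted p = 9.65e-07). Mouse *Orc1* was scarce, at 3.86, 5.56 and 5.41 CPM in DMSO and 3.17, 2.94 and 2.22 CPM with ponatinib, without overlap (-0.83 ± 0.21, adjusted p = 0.00372). *ORC6*, another subunit, fell by 1.22 ± 0.09 in MDA-MB-231 and by 0.59 ± 0.08 in 4T1 on the log2 scale.

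Among the helicase subunits, all of *MCM2* to *MCM7* fell in MDA-MB-231 and all but *Mcm6* fell in 4T1. *MCM7*, a subunit of the helicase motor, was at 633, 550 and 545 CPM in DMSO and at 320, 299 and 297 CPM with ponatinib in MDA-MB-231 (log2 fold change -0.92 ± 0.08, adjusted p = 2.95e-06). In 4T1 *Mcm7* was at 311, 270 and 290 CPM in DMSO and at 235, 241 and 247 CPM with ponatinib (-0.27 ± 0.07, adjusted p = 0.00609). Its groups did not overlap in either line, though in 4T1 the nearest libraries lay at 270 and 247 CPM, and the 4T1 call was lost with scaling by total counts (adjusted p = 0.0775). *Mcm3*, with the second largest fall of the role in 4T1, went from 264, 263 and 256 CPM to 144, 135 and 150 CPM (-0.87 ± 0.07, adjusted p = 1.32e-07). *Mcm6* stood at 83.9, 82.9 and 85.6 CPM in DMSO and 77.2, 85.8 and 89.5 CPM with ponatinib, with overlapping groups and a log2 fold change of 0.000344 ± 0.08 (adjusted p = 0.997). Human *MCM6* fell from 56.0, 67.8 and 71.3 CPM to 42.5, 47.4 and 44.7 CPM (-0.54 ± 0.10, adjusted p = 0.00088), the smallest fall among the licensing genes of that line.

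The share of *MCM6* among the helicase transcripts was higher with ponatinib in both lines. Levels per kb of exon use the merged length of all annotated exons of a gene, so shares and ratios between genes depend on the annotation. By this measure *Mcm6* was 8.42% ± 0.39 (SD, n = 3) of the summed *Mcm2* to *Mcm7* level in 4T1 with DMSO and 12% ± 0.85 with ponatinib. *Mcm3* went from 22.6% ± 0.70 to 17.6% ± 0.41. In MDA-MB-231, *MCM6* went from 5.00% ± 0.76 to 6.59% ± 0.47 and *MCM3* from 32.0% ± 1.07 to 29.4% ± 0.22. The ratio of *MCM6* to *MCM3* in CPM per kb of exon was 0.135, 0.160 and 0.173 in DMSO and 0.211, 0.240 and 0.223 with ponatinib in MDA-MB-231. In 4T1 it was 0.366, 0.363 and 0.386 in DMSO and 0.620, 0.734 and 0.688 with ponatinib. The groups did not overlap in either line (p = 0.1 by an exact permutation test, two-sided, and 3 against 3 libraries allow no smaller p). This pair and the other pairs of genes given as ratios were chosen after their values were seen.

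The genes of helicase activation had the lowest role median in MDA-MB-231 and were divided in 4T1. All 6 were lower in MDA-MB-231 (median -1.40), while 4 of 6 were lower in 4T1 (median -0.50). *MCM10*, which helps to activate the loaded helicase, was at 27.7, 36.3 and 32.8 CPM in DMSO and at 9.34, 7.90 and 7.28 CPM with ponatinib in MDA-MB-231 (log2 fold change -1.98 ± 0.14, adjusted p = 4.51e-07). In 4T1 *Mcm10* went from 42.1, 45.1 and 46.0 CPM to 24.3, 28.2 and 29.9 CPM (-0.69 ± 0.10, adjusted p = 2.6e-05). *MCM10* thus fell to 25.3% of its DMSO mean in one line and to 61.8% in the other.

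*CDC45*, a fixed part of the active helicase, was at 99.3, 79.6 and 85.0 CPM in DMSO and at 33.6, 33.8 and 31.8 CPM with ponatinib in MDA-MB-231 (log2 fold change -1.41 ± 0.10, adjusted p = 4.34e-07). Mouse *Cdc45* went from 45.5, 44.5 and 45.0 CPM to 35.1, 30.7 and 35.2 CPM (-0.42 ± 0.09, adjusted p = 0.000849). The 4 GINS subunits, which form 1 complex, fell together in MDA-MB-231, with log2 fold changes of -1.28 (*GINS1*), -1.41 (*GINS2*), -1.31 (*GINS3*) and -1.40 (*GINS4*). In 4T1, *Gins1* fell by 0.58 ± 0.11 and *Gins3* fell by 0.87 ± 0.20 on the log2 scale, whereas *Gins2* and *Gins4* had log2 fold changes of 0.28 ± 0.14 and 0.23 ± 0.11 and were not called (adjusted p = 0.109 and 0.0807).

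*Gins3* was measured at 5.5, 7.78 and 9.24 CPM in DMSO and 3.73, 4.65 and 3.96 CPM with ponatinib. *Gins4* was at 25.8, 28.7 and 27.5 CPM in DMSO and at 27.7, 32.8 and 35.6 CPM with ponatinib, and its groups overlapped. *Gins2* was at 16.2, 12 and 11 CPM in DMSO and at 16.4, 14.7 and 16.5 CPM with ponatinib, and 67.3% of its exon bases overlap *Gse1*, a gene at 73.4 CPM in DMSO and 74.6 CPM with ponatinib. The ratio of *Gins4* to *Gins1* in CPM per kb of exon in 4T1 was 0.355, 0.357 and 0.349 in DMSO and 0.540, 0.713 and 0.613 with ponatinib, without overlap. In MDA-MB-231 the same ratio was 0.574, 0.723 and 0.777 in DMSO and 0.499, 0.606 and 0.815 with ponatinib, and the groups overlapped (exact two-sided permutation test, p = 0.7).

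Polymerase and fork genes fell together in MDA-MB-231 and went different ways in 4T1. All 14 were lower in MDA-MB-231 (median -0.96). Of the 14 mouse genes, 6 were lower in 4T1 (*Fen1*, *Prim1*, *Pcna*, *Pole*, *Rpa2* and *Pola1*), 2 were higher (*Rfc2* and *Pold1*) and 6 were not called, with a median of -0.10 that became 0.02 with scaling by total counts. *FEN1*, the nuclease that trims Okazaki fragments, fell the most of its role in MDA-MB-231, from 338, 324 and 306 CPM to 100, 93.1 and 90.7 CPM (-1.77 ± 0.08, adjusted p = 1.55e-08). Mouse *Fen1* had few counts in 4T1, at 3.01, 2.5 and 1.75 CPM in DMSO and 0.767, 1.5 and 0.705 CPM with ponatinib (-1.28 ± 0.33, adjusted p = 0.00421). Only 130 counts in DMSO and 57 with ponatinib stood behind it, and 65.9% of its exon bases overlap *Tmem258* (62.8 CPM in DMSO and 60.2 CPM with ponatinib) and *Gm10143* on the other strand. All overlaps of exon bases given here are with genes on the other strand, and how reads in them were counted is not stated. Of the mouse members, *Rfc4* overlaps *Eif4a2* (211 CPM in DMSO and 207 CPM with ponatinib) over 29.0% of its exon bases, *Pcna* overlaps *AV099323* over 20.8% and *E2f8* overlaps *Gm2788* over 20.2%. Of the human members, *MCM2* and *GINS4* overlap antisense genes over 23.6% and 23.4%.

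*PCNA*, the sliding clamp, was at 263, 265 and 263 CPM in DMSO and at 113, 117 and 120 CPM with ponatinib in MDA-MB-231 (log2 fold change -1.17 ± 0.07, adjusted p = 1.44e-07). In 4T1 it was at 200, 246 and 235 CPM in DMSO and 129, 140 and 151 CPM with ponatinib (-0.70 ± 0.09, adjusted p = 1.22e-05). Of the subunits of RFC, the complex that loads PCNA, 4 are members. In MDA-MB-231 *RFC2*, *RFC3*, *RFC4* and *RFC5* had log2 fold changes of -0.82, -1.17, -0.71 and -1.17, and in 4T1 those of *Rfc2*, *Rfc3*, *Rfc4* and *Rfc5* were 0.38, -0.09, -0.11 and 0.17, of which only *Rfc2* was called. The large subunit *RFC1*, from the list of other replication factors, was not called in either line (-0.08 ± 0.10, adjusted p = 0.512, for human *RFC1* and -0.08 ± 0.07, adjusted p = 0.366, for mouse *Rfc1*).

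*RFC2* was at 104, 94.9 and 91.7 CPM in DMSO and 56.0, 53.5 and 54.3 CPM with ponatinib in MDA-MB-231 (log2 fold change -0.82 ± 0.08, adjusted p = 5.34e-06). *Rfc2* was at 53.6, 50.1 and 49.3 CPM in DMSO and 65.2, 65.0 and 69.1 CPM with ponatinib in 4T1 (0.38 ± 0.08, adjusted p = 0.00069). Its groups were apart in both lines and in opposite order, and 24.3% of the exon bases of *Rfc2* overlap *Lat2*, which was at 1.71 and 0.871 CPM. *RFC5* went from 67.2, 80.2 and 78.6 CPM to 29.0, 34.8 and 36.4 CPM in MDA-MB-231 (-1.17 ± 0.11, adjusted p = 3.61e-06). *Rfc5* went from 43.4, 39.5 and 43.4 CPM to 47.0, 46.9 and 47.9 CPM in 4T1 (0.17 ± 0.08, adjusted p = 0.0906), while 41.4% of its exon bases overlap *Wsb2*, at 162 CPM in DMSO and 181 CPM with ponatinib.

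The subunits of DNA polymerase alpha-primase, which starts every new strand, received different calls in 4T1. *POLA2*, its regulatory subunit, fell from 68.2, 63.5 and 61.4 CPM to 29.9, 26.5 and 27.7 CPM in MDA-MB-231 (log2 fold change -1.20 ± 0.09, adjusted p = 7.86e-07), although 55.1% of its 75-base words are shared with a readthrough gene. *Pola2* was at 82.8, 81.9 and 79.3 CPM in DMSO and at 91.6, 87.1 and 97.3 CPM with ponatinib in 4T1, without overlap but not called (0.18 ± 0.07, adjusted p = 0.051). *Prim1*, the primase that makes the RNA primer, fell from 33.7, 42.4 and 39.3 CPM to 21.4, 26.1 and 20.9 CPM in 4T1 (-0.75 ± 0.12, adjusted p = 5.92e-05), and human *PRIM1* had a log2 fold change of -1.04 ± 0.13. *POLA1*, the catalytic subunit, had log2 fold changes of -0.53 ± 0.11 (MDA-MB-231) and -0.44 ± 0.15 (4T1, adjusted p = 0.0186), and in 4T1 its groups overlapped and its call was lost with scaling by total counts (adjusted p = 0.0848), without DMSO replicate 2, without DMSO replicate 3 and without ponatinib replicate 1 (adjusted p of 0.0653 to 0.0965).

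The main polymerases of the leading and lagging strands were called in opposite directions in 4T1. *POLE*, the catalytic subunit of the leading strand polymerase, had log2 fold changes of -0.68 ± 0.08 (MDA-MB-231) and -0.59 ± 0.08 (4T1). *POLD1*, the catalytic subunit of the lagging strand polymerase, was at 221, 196 and 197 CPM in DMSO and at 134, 114 and 133 CPM with ponatinib in MDA-MB-231 (-0.68 ± 0.09, adjusted p = 4.95e-05). In 4T1 *Pold1* was at 52.1, 43.5 and 50.3 CPM in DMSO and at 59.7, 53.8 and 58.7 CPM with ponatinib (0.24 ± 0.09, adjusted p = 0.0312). The rise of *Pold1* was not called by DESeq2 (adjusted p = 0.0545), nor without DMSO replicate 2, ponatinib replicate 1 or ponatinib replicate 3 (adjusted p of 0.0871 to 0.146). *LIG1*, the ligase that seals Okazaki fragments, had the smallest fall of all members in MDA-MB-231 and a log2 fold change of 0.03 ± 0.08 in 4T1 (adjusted p = 0.803).

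**Figure D2:**
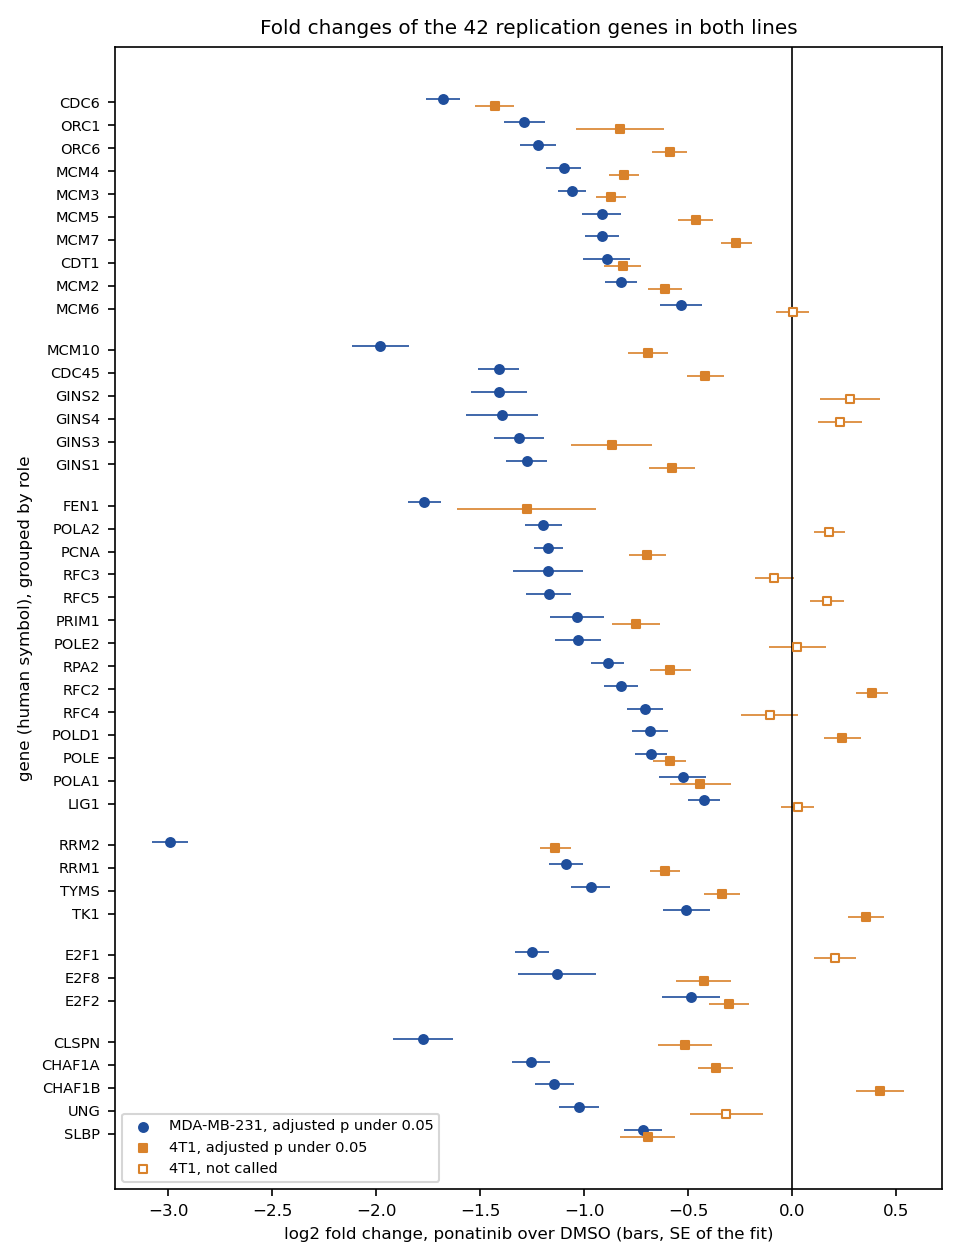
Log2 fold changes of ponatinib over DMSO for the 42 genes in MDA-MB-231 (blue circles) and 4T1 (orange squares), with the SE of the fit as bars, filled where the adjusted p-value was under 0.05 and open where it was not. All blue circles lie left of 0, from -2.99 to -0.43, and the orange squares run from -1.43 to 0.42.

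Nucleotide synthesis held the largest fall of all members and also 1 of the 4 genes that rose in 4T1. All 4 genes were lower in MDA-MB-231 (median -1.03), against 3 lower and 1 higher in 4T1 (median -0.47). *RRM2* (chr2:10120698-10211725 in hg38), the small subunit of ribonucleotide reductase that limits deoxynucleotide supply, was at 323, 365 and 356 CPM in DMSO and at 40.8, 45.1 and 45.4 CPM with ponatinib in MDA-MB-231. It fell to 12.6% of its DMSO mean (log2 fold change -2.99 ± 0.09, adjusted p = 1.08e-09). *Rrm2* was at 114, 120 and 122 CPM in DMSO and at 51.1, 55.8 and 54.6 CPM with ponatinib in 4T1, or 45.4% of its DMSO mean (-1.14 ± 0.07, adjusted p = 1.27e-08). The large subunit *RRM1* fell less, from 129, 133 and 138 CPM to 59.3, 60.0 and 68.9 CPM in MDA-MB-231 (-1.09 ± 0.08, adjusted p = 9.81e-07) and from 126, 135 and 134 CPM to 83.4, 89.5 and 85.0 CPM in 4T1 (-0.61 ± 0.07, adjusted p = 4.57e-06).

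The ratio of the subunits was lower with ponatinib in both lines. The ratio of *RRM2* to *RRM1* in CPM per kb of exon in MDA-MB-231 was 1.15, 1.27 and 1.19 in DMSO and 0.318, 0.348 and 0.305 with ponatinib. In 4T1 it was 3.20, 3.16 and 3.23 in DMSO and 2.17, 2.21 and 2.28 with ponatinib. The groups were apart in each line, with log2 changes of -1.90 and -0.53 (p = 0.1 in each by the same exact permutation test). The exon bases of mouse *Rrm2* overlap the annotated gene *Gm59512* by 43.3%.

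Thymidylate synthesis and salvage parted in 4T1. *TYMS*, thymidylate synthase, had log2 fold changes of -0.97 ± 0.09 (MDA-MB-231) and -0.34 ± 0.09 (4T1, adjusted p = 0.00372), and 47.9% of the exon bases of human *TYMS* overlap *ENOSF1* and *TYMSOS*. *TK1*, the cytosolic thymidine kinase of the salvage pathway, was at 687, 531 and 530 CPM in DMSO and at 462, 392 and 373 CPM with ponatinib in MDA-MB-231 (-0.51 ± 0.11, adjusted p = 0.00261). *Tk1* was at 78.8, 70.0 and 74.3 CPM in DMSO and at 95.1, 85.2 and 105 CPM with ponatinib in 4T1 (0.35 ± 0.09, adjusted p = 0.00279). The groups of *TK1* were apart in both lines, lower with ponatinib in the first and higher in the second. In CPM per kb of exon, the ratio of *TK1* to *TYMS* was higher with ponatinib in both lines. It went from 9.44, 7.50 and 7.76 to 11.4, 11.2 and 11.5 in MDA-MB-231 and from 0.973, 1.01 and 1.01 to 1.66, 1.53 and 1.64 in 4T1, again without overlap (p = 0.1 in each by the exact permutation test).

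**Figure D3:**
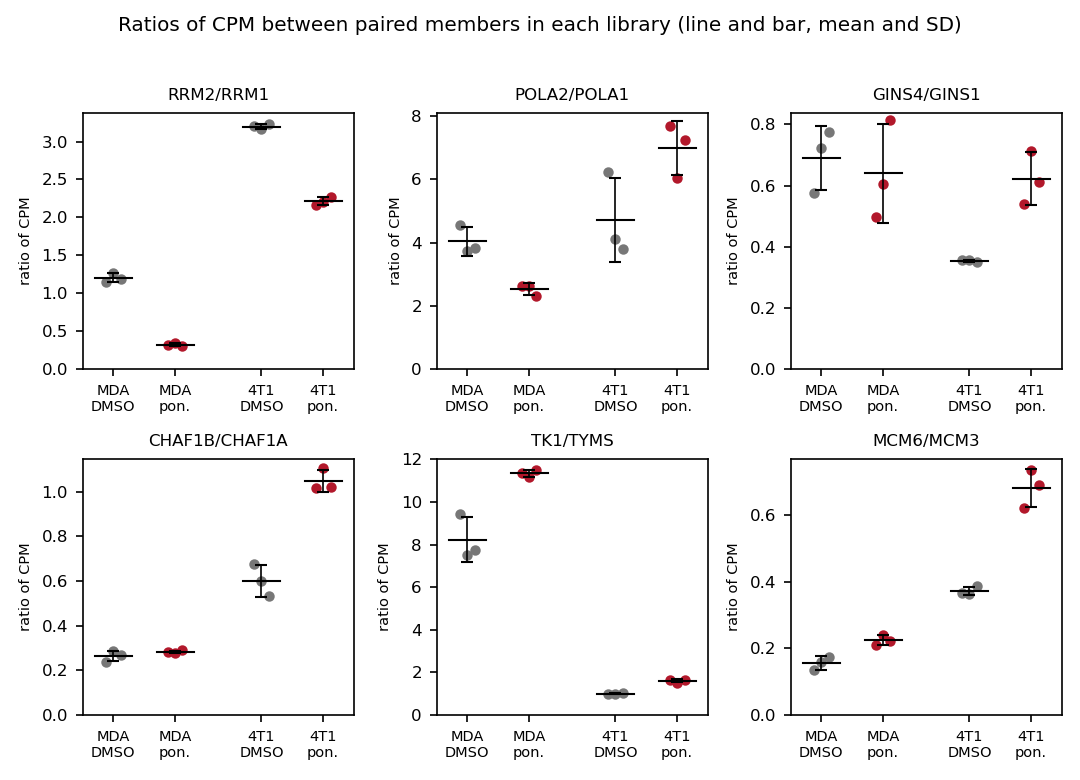
Ratios of CPM per kb of exon between pairs of members in each library (points), with the mean and SD of 3 libraries, for DMSO (grey) and ponatinib (red, "pon.") in MDA-MB-231 ("MDA") and 4T1, under the human symbols. The title and axes call these values ratios of CPM. The *RRM2* to *RRM1* ratio is lower with ponatinib in both lines, and the *CHAF1B* to *CHAF1A* ratio overlaps between the groups in MDA-MB-231 and is apart in 4T1.

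Of the E2F factors, *E2F1* differed most between the lines. All 3 were lower in MDA-MB-231 (median -1.13) and 2 of 3 in 4T1 (median -0.31). *E2F1*, an activating E2F, was at 219, 187 and 196 CPM in DMSO and at 85.5, 84.4 and 82.7 CPM with ponatinib in MDA-MB-231 (-1.25 ± 0.08, adjusted p = 2.85e-07). *E2f1* was at 34.5, 30.7 and 29.0 CPM in DMSO and at 38.5, 32.7 and 37.4 CPM with ponatinib in 4T1, with overlapping groups (0.21 ± 0.10, adjusted p = 0.0921).

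*E2F2*, another activator, was in MDA-MB-231 at 9.88, 10.4 and 10.4 CPM in DMSO and at 7.25, 8.22 and 6.41 CPM with ponatinib (log2 fold change -0.49 ± 0.14, adjusted p = 0.0113). Its call was the only one in that line that any left-out library removed (without ponatinib replicate 3, adjusted p = 0.0523). In 4T1 *E2f2* was at 58.2, 65.2 and 51.1 CPM in DMSO and at 45.9, 49.4 and 45.9 CPM with ponatinib (-0.31 ± 0.09, adjusted p = 0.0118). *E2F8*, an atypical E2F that represses, went from 11.9, 14.1 and 14.2 CPM to 5.05, 5.03 and 8.16 CPM in MDA-MB-231 (-1.13 ± 0.19, adjusted p = 0.000341). *E2f8* went from 11.5, 13.8 and 11.4 CPM to 9.10, 9.87 and 8.35 CPM in 4T1 (-0.43 ± 0.13, adjusted p = 0.0124). Neither *E2f2* nor *E2f8* was called without DMSO replicate 2 (adjusted p = 0.0765 and 0.0693) or with scaling by total counts (0.106 and 0.0624), and *E2f8* lost it without ponatinib replicate 3 as well (adjusted p = 0.0555).

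Genes of checkpoint, repair and chromatin were all lower in MDA-MB-231 (5 of 5, median log2 fold change -1.14), and in 4T1 3 were lower, 1 was higher and 1 was not called (median -0.37). *CLSPN*, or claspin, which couples stalled forks to the checkpoint kinase CHK1, went from 21.2, 24.9 and 27.4 CPM to 8.26, 6.12 and 7.06 CPM in MDA-MB-231 (-1.78 ± 0.14, adjusted p = 1.47e-06). In 4T1 *Clspn* went from 14.9, 19 and 16.6 CPM to 13.1, 11.4 and 10.7 CPM (-0.51 ± 0.13, adjusted p = 0.00336). *SLBP*, which binds the stem-loop of replication-dependent histone mRNA, had log2 fold changes of -0.72 ± 0.09 and -0.70 ± 0.13, and *Slbp* was at 20.2, 28.6 and 24.1 CPM in DMSO and 14.0, 16.5 and 14.4 CPM with ponatinib. *UNG*, the uracil-DNA glycosylase, was at 156, 162 and 162 CPM in DMSO and 66.6, 84.1 and 84.3 CPM with ponatinib in MDA-MB-231 (-1.03 ± 0.10, adjusted p = 3.99e-06), while *Ung* in 4T1 had a log2 fold change of -0.32 ± 0.17 (adjusted p = 0.132).

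The subunits of chromatin assembly factor 1, which deposits histones behind the fork, moved together in MDA-MB-231 and in opposite directions in 4T1. *CHAF1A* was at 136, 113 and 117 CPM in DMSO and 53.6, 48.5 and 51.0 CPM with ponatinib in MDA-MB-231 (log2 fold change -1.26 ± 0.09, adjusted p = 6.53e-07), and *Chaf1a* at 63.9, 62.6 and 60.6 CPM and 49.9, 43.5 and 51.5 CPM in 4T1 (-0.37 ± 0.08, adjusted p = 0.00171). *CHAF1B* was at 38.3, 37.9 and 37.0 CPM in DMSO and 17.8, 15.9 and 17.4 CPM with ponatinib in MDA-MB-231 (-1.14 ± 0.09, adjusted p = 1.46e-06). *Chaf1b* was at 23.9, 20.7 and 17.8 CPM in DMSO and 28.1, 26.6 and 29.1 CPM with ponatinib in 4T1 (0.42 ± 0.12, adjusted p = 0.00562). No group overlapped its control for either subunit. The ratio of *Chaf1b* to *Chaf1a* in CPM per kb of exon was 0.675, 0.599 and 0.532 in DMSO and 1.02, 1.10 and 1.02 with ponatinib in 4T1. Of the exon bases of *Chaf1a*, 51.0% overlap *Ubxn6*, which went from 61.3 to 78.0 CPM.

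Whether the lines differed was tested gene by gene as the interaction of line and treatment, over 12488 genes with the same symbol in both species, with all 12 libraries in 1 fit. Of the 42 members, 28 were called by the quasi-likelihood test of edgeR (adjusted p under 0.05), all with a more positive log2 fold change in 4T1 and none with a more negative one, where 20.0% and 21.9% of all shared genes were called in these directions. The median difference, 4T1 minus MDA-MB-231, was 0.56 over the members and -0.04 over all shared genes. Line, species and annotation cannot be told apart in this comparison. Differences come from the joint fit, so they are close to and not the same as the difference of the values fitted in each line.

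The smallest p-values belonged to *RRM2*, *POLA2*, *E2F1*, *RFC2*, *CHAF1B* and *RFC5*. Their differences were 1.78 ± 0.11 (SE), 1.30 ± 0.11, 1.39 ± 0.13, 1.13 ± 0.11, 1.5 ± 0.15 and 1.27 ± 0.14 on the log2 scale. *GINS2* and *GINS4*, with differences of 1.62 ± 0.21 and 1.55 ± 0.21, came next. By role, 4 of 10 licensing genes were called, 5 of 6 genes of helicase activation, 9 of 14 polymerase and fork genes, 4 of 4 genes of nucleotide synthesis, 2 of 3 E2F factors and 4 of 5 genes of checkpoint, repair and chromatin. The median differences of these roles were 0.30, 1.07, 0.48, 0.68, 0.63 and 0.82.

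For 14 members no difference between the lines was called, and 6 of them were licensing genes, namely *CDC6*, *CDT1*, *ORC1*, *MCM2*, *MCM3* and *MCM4*. With the replicate number as a block within each line, *MCM4* was called (0.22, adjusted p = 0.0228), and it was called under 5 of 19 settings in all. The difference of *CDC6* was 0.18, with a 95% interval of -0.07 to 0.42, that of *MCM3* was 0.12 (-0.09 to 0.32) and that of *CDT1* was 0.01 (-0.31 to 0.32). *POLE* had a difference of 0.02 (-0.20 to 0.24) and *SLBP* one of -0.05 (-0.39 to 0.29). These intervals leave room for differences of the size they span. Across the 42 genes, the log2 fold changes of both lines had a Pearson's r of 0.425 and a Spearman's rho of 0.319, given as a description, since genes of a line share its libraries.

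Genes outside the 42 were read from lists of the same pathways, and their counts stand beside the shares of all genes, 26.8% lower with 27.2% higher (MDA-MB-231) and 29.4% lower with 29.5% higher (4T1). Of 35 other replication factors, MDA-MB-231 showed 28 lower and 1 higher (median log2 fold change -0.70), and 4T1 showed 15 lower and 4 higher (median -0.17). *DTL*, the substrate receptor that marks CDT1 for destruction, had log2 fold changes of -1.75 ± 0.10 and -0.88 ± 0.10, and in MDA-MB-231 *DSCC1*, of an alternative clamp loader, had one of -1.49 ± 0.11. The single rise in MDA-MB-231 was that of *POLD4*, a small subunit of DNA polymerase delta, from 4.39 to 10.0 CPM (1.19 ± 0.24, adjusted p = 0.00144). In 4T1, *Atad5*, which unloads PCNA, fell from 23.2 to 10.6 CPM, whereas *Dscc1* rose from 7.13 to 10.2 CPM (0.51 ± 0.14, adjusted p = 0.00575) and *Donson* from 9.12 to 11.6 CPM (0.35 ± 0.13, adjusted p = 0.0299).

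Of 27 other genes of nucleotide synthesis, MDA-MB-231 showed 20 lower and 3 higher (median -0.58), and 4T1 showed 12 lower and 8 higher (median -0.05), the latter close to the 29.5% of all 4T1 genes that were higher. *PPAT*, the first enzyme of purine synthesis, was among the largest falls in both lines (-1.18 ± 0.12 and -0.76 ± 0.10), beside *UMPS* in MDA-MB-231 (-1.08 ± 0.09). The largest rises in MDA-MB-231 were those of *TK2*, the mitochondrial thymidine kinase, from 7.06 to 19.2 CPM (1.45 ± 0.13, adjusted p = 4.08e-06), and *RRM2B*, the p53-inducible small subunit of ribonucleotide reductase, from 15.3 to 21.9 CPM (0.51 ± 0.13, adjusted p = 0.00444). Both of these enzymes are known to act outside S phase as well. In 4T1 the largest rises were those of *Dhodh*, of pyrimidine synthesis (0.80 ± 0.12), and *Ctps2*, a CTP synthase (0.69 ± 0.11).

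Histone supply and DNA methylation genes were lower for 5 of 7 tested in MDA-MB-231 and for 8 of 8 in 4T1, led by *ASF1B* (-1.37 ± 0.09) and *HELLS* (-1.18 ± 0.11) in the first and *Hells* (-0.90 ± 0.11) and *Nasp* (-0.62 ± 0.12) in the second. *ASF1B* and *NASP* are histone chaperones. Of 25 E2F regulators, MDA-MB-231 showed 18 lower and 4 higher, and 4T1 showed 17 lower and 2 higher. In MDA-MB-231 the largest falls were those of *CDKN1A*, the p21 inhibitor of cyclin-dependent kinases, from 246 to 38.5 CPM (-2.67 ± 0.08, adjusted p = 1.08e-09), and *CDC25A*, a phosphatase that activates these kinases, from 59.2 to 11.9 CPM (-2.32 ± 0.11, adjusted p = 2.12e-08). The largest rises were those of *CDKN1C*, the p57 inhibitor, from 10.5 to 44 CPM (2.07 ± 0.18, adjusted p = 2.16e-06), and *RBL2*, the p130 pocket protein, from 5.46 to 12 CPM (1.13 ± 0.22, adjusted p = 0.00107).

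In 4T1 the cyclin E genes led the falls of this list. *Ccne2* went from 5.16 to 1.15 CPM (log2 fold change -2.16 ± 0.23, adjusted p = 1.81e-06) and *Ccne1* from 8.02 to 2.49 CPM (-1.69 ± 0.19, adjusted p = 3.56e-06), while *Rbl2* rose from 8.69 to 13.6 CPM (0.65 ± 0.15, adjusted p = 0.00193) and *Tfdp2*, a partner of E2F factors, from 21.3 to 33.4 CPM (0.65 ± 0.11, adjusted p = 0.000148). Markers of G2/M were lower for 20 of 24 genes in MDA-MB-231 and for 17 of 24 in 4T1, with medians of -0.53 and -0.40. *AURKB* and *CDC20* had log2 fold changes of -1.02 ± 0.10 and -0.97 ± 0.08 in MDA-MB-231, and *Prc1* and *Hmmr* of -0.91 ± 0.08 and -0.67 ± 0.09 in 4T1. *Ccnb2*, a B-type cyclin, rose in 4T1 from 34.2 to 69.5 CPM (1.02 ± 0.10, adjusted p = 4.58e-07).

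**Figure D4:**
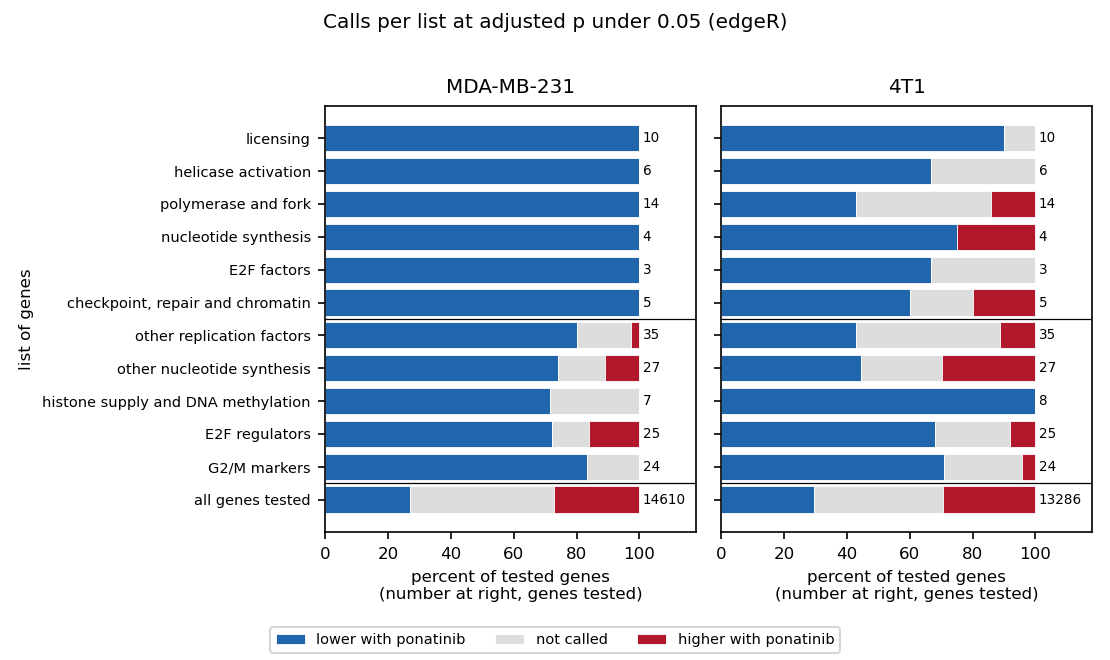
Share of tested genes of each list that were lower (blue), not called (grey) or higher (red) in ponatinib than in DMSO, by adjusted p under 0.05, in each line, with the 6 roles of the 42 genes above the upper black line, the other lists between the black lines and all genes tested at the bottom. The role bars are wholly blue in MDA-MB-231, and in 4T1 the blue part shrinks from 9 of 10 licensing genes to 6 of 14 polymerase and fork genes.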

How the data were processed

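RNA-seq counts of 12 libraries were used, 3 for each line and treatment, grouped by their titles. The authors deposited raw counts, 1 per gene and library. By the study's methods and the submitters' processing notes, reads with adapters or poly-N were discarded by the authors, HISAT2 was used for alignment (hg38 for human, GRCm39 for mouse) and HTSeq for counting. Versions, annotation and strand setting are not given in the sources used here, so overlapping and antisense genes cannot be told apart, and overlaps of at least 20% of exon bases are named. Names and coordinates came from GENCODE v44 and vM39, which matched 81.946% and 91.066% of identifiers (99.323% and 99.785% of counts).

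The members, lists and named genes were chosen with earlier results of these data known. Each line was fitted apart by the quasi-likelihood test of edgeR 4.0.16 in R 4.3.3, after filterByExpr and TMM scaling, with Benjamini-Hochberg adjustment over all genes tested and calls under 0.05, and the difference between lines as an interaction over 12488 of 16822 shared symbols. Standard errors are those implied by the F statistic. Named for full values were, per line and role, the gene with the highest DMSO CPM and the 2 with the largest changes, genes called in opposite directions, and the 6 smallest interaction p-values. Of other lists, up to 2 largest rises and falls were named, and 1 gene that met this rule is not reported here. Motif windows, ratios and exon overlaps were computed from the reference and the counts.

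Common biological coefficients of variation were 0.0990 (MDA-MB-231) and 0.0869 (4T1). Chi-square per gene between replicates was 2.86 to 14.7, so no library was a copy. Deviations of same-numbered libraries correlated at 0.345, 0.111 and 0.133 (MDA-MB-231) and at 0.213, 0.119 and 0.115 (4T1), all over 0.1, so numbers were taken to pair the libraries on these values alone. The main fits, the interaction included, held no term for the replicate number. Their calls, standard errors and p-values therefore leave this pairing out, and only the replicate block takes it in. Each fit was tested on simulated counts with known changes. Alternatives were DESeq2 1.42.0, its size factors, total counts, other filters, the replicate block, other thresholds and each library left out.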

Additional observations from a re-analysis of the deposited data

Results flagged for a closer look

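For 28 of the 42 genes the effect of ponatinib differed between the lines by a test of the difference itself, the interaction of line and treatment (edgeR's quasi-likelihood test, adjusted p under 0.05 over 12488 shared genes). Each difference is the log2 fold change in 4T1 minus that in MDA-MB-231, and each was positive. Among licensing genes it was 0.57 (*MCM7*), 0.56 (*ORC6*), 0.46 (*MCM6*) and 0.38 (*MCM5*). Among genes of helicase activation it was 1.62 (*GINS2*), 1.55 (*GINS4*), 1.22 (*MCM10*), 0.92 (*CDC45*) and 0.63 (*GINS1*). Polymerase and fork genes had differences of 1.30 (*POLA2*), 1.27 (*RFC5*), 1.13 (*RFC2*), 1.01 (*RFC3*), 0.98 (*POLE2*), 0.85 (*POLD1*), 0.53 (*RFC4*), 0.41 (*PCNA*) and 0.38 (*LIG1*). Those of nucleotide synthesis were 1.78 (*RRM2*), 0.79 (*TK1*), 0.56 (*TYMS*) and 0.40 (*RRM1*), and those of the E2F factors 1.39 (*E2F1*) and 0.63 (*E2F8*). For *CHAF1B*, *CLSPN*, *CHAF1A* and *UNG* they were 1.5, 1.19, 0.82 and 0.64. Their adjusted p-values ran from 4.23e-10 (*RRM2*) to 0.0364 (*E2F8*). The difference of *E2F8* was called under 13 of 19 settings and lost without DMSO replicate 2 or 3 or ponatinib replicate 1 or 2 of MDA-MB-231, and without DMSO replicate 3 or ponatinib replicate 2 of 4T1 (adjusted p of 0.0539 to 0.108). That of *MCM5* was called under 16 of 19 and lost without DMSO replicate 1, ponatinib replicate 2 or ponatinib replicate 3 of MDA-MB-231 (0.0594 to 0.0639). For *GINS2*, *RFC2*, *RFC4*, *RFC5*, *RRM2*, *PCNA*, *E2F8* and *CHAF1A* the mouse gene, and for *TYMS* and *GINS4* the human gene, shares at least 20% of its exon bases with genes on the other strand, and the part of this in the differences was not tested.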

How the results depend on the processing

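All 42 members were lower in MDA-MB-231 under the other scalings, filters and tools, and 41 to 42 with 1 library left out. Medians with scaling by total counts were -0.89 (licensing), -1.31 (helicase activation), -0.86 (polymerase and fork), -0.94 (nucleotide synthesis) and -1.05 (checkpoint, repair and chromatin) for MDA-MB-231, and for 4T1 -0.59, -0.38, 0.018, -0.36 and -0.25, with -0.19 for E2F factors. Licensing medians without 1 library were -1.03 to -0.97 (MDA-MB-231) and -0.74 to -0.66 (4T1). In 4T1 9 members were higher with total counts. At an unadjusted p under 0.05 with a fold of at least 1.5, 17 members were lower and 0 higher in 4T1 (4 higher at adjusted p under 0.05 by edgeR), and over all genes 2115 were lower (MDA-MB-231), or 1735 lower with 2451 higher (4T1). With the replicate number as a block, which pairs the libraries, 8 members were higher in 4T1. Changes near 0 turned sign in 4T1: *Mcm6* was at -0.00865 with DESeq2 size factors, -0.00165 with the block, -0.0103 by DESeq2 and -0.044 to 0.057 without 1 library, *Rfc3* at 0.030 and *Rfc4* at 0.00728 with total counts, and without 1 library *Pole2* ran from -0.027 to 0.095, *Rfc4* from -0.22 to 0.022 and *Lig1* from -0.00287 to 0.058. Differences between lines without 1 library ran from -0.11 to 0.17 (*CDT1*), -0.11 to 0.19 (*POLA1*), -0.018 to 0.12 (*POLE*) and -0.12 to 0.15 (*SLBP*), and that of *SLBP* was 0.053 with total counts and 0.025 with each line's own TMM factors. The number of members with a called difference was 26 to 30 in all settings. The cause of these shifts was not tested. Low counts limit *Fen1*, *Orc1*, *Gins3* and *Ung* in 4T1.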
